A study of Mus musculus with 12 samples.

Results

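The genes of fatty acid oxidation and ketone use were followed in the hypothalamus of WT and *Gpr75*-/- mice. The set holds 38 genes that were chosen by symbol for their known roles, and all 38 were found among the 16855 genes listed for chow and the 16744 listed for the high-fat diet (HFD). RNA-Seq of whole hypothalamus covered 12 male mice, 3 in each of 4 groups, which were WT mice on chow, *Gpr75*-/- mice on chow, WT mice on the HFD and *Gpr75*-/- mice on the HFD. The HFD was given for 2 weeks from 6 weeks of age. The null allele was made with CRISPR/Cas9 on the C57BL/6J background, stops translation soon after the start codon and is carried by every cell of the body. Values of single mice were not used here. Each group has 1 level per gene, which the authors averaged over its 3 mice, so the differences below carry no error between mice, and no test of genotype was made from these levels.

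Fatty acids enter cells partly through the scavenger receptor CD36, are carried by fatty acid–binding proteins and are activated to acyl-CoA by the long-chain acyl-CoA synthetases. Carnitine palmitoyltransferases and the carnitine carrier move acyl groups into mitochondria, where β-oxidation shortens them by repeated rounds of dehydrogenation, hydration, a further dehydrogenation and thiolysis. Peroxisomes run a parallel pathway for very long and branched chains. Brain burns little fat compared with heart or muscle but uses ketone bodies made by the liver, and lipid sensing in the hypothalamus has long been studied as a signal of energy state.

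The promoters of a few of these genes are shown first. That of *Cd36* is given because *Cd36* had the highest fold of the set on both diets, that of *Cpt1a* because this gene is the entry step of the mitochondrial pathway, and that of *Hadhb* because it lies between the starts of a gene pair. *Hadha* and *Hadhb* encode the α and β subunits of the mitochondrial trifunctional protein and lie head to head on chromosome 5, with 273 bases between their RefSeq starts. Each run is the 250 bases before a start in RefSeq on GRCm38.p6, 5′ to 3′ on the gene's strand. Only the RefSeq entry listed earliest for a gene was used, and other starts are not shown. The start used for *Cd36* lies inside the gene and is not its outermost start. Capitals mark the half-site AGGTCA on either strand, the hexamer that PPARs share with other nuclear receptors, and the *Hadhb* window holds none.
*Cd36*, chr5:17835897-17836146, minus strand: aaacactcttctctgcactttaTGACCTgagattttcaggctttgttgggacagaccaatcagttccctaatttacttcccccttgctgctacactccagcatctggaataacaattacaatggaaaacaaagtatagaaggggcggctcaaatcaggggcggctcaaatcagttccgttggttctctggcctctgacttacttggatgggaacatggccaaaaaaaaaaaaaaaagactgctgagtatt
*Cpt1a*, chr19:3323051-3323300, plus strand: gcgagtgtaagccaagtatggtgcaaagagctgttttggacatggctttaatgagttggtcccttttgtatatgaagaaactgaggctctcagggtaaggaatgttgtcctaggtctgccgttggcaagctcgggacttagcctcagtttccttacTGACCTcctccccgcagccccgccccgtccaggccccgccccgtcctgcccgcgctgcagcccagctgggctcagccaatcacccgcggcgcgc
*Hadhb*, chr5:30155003-30155252, plus strand: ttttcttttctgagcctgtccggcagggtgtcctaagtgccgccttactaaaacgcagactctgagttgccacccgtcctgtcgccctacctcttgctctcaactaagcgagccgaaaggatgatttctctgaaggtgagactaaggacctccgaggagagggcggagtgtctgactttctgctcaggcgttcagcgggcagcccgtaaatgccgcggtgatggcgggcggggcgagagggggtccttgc

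RefSeq promoters were matched for 33 of the 38 genes, with 37 windows of this length in all. The half-site was in 8 of these windows (21.6%) and in 14.0% of 32851 windows of all genes. The windows that held it belong to 8 genes, *Acadm*, *Acadvl*, *Acsl6*, *Cd36*, *Cpt1a*, *Cpt1c*, *Echs1* and *Fabp7*. A direct repeat of the half-site with 1 base between, AGGTCANAGGTCA, which contains the half-site, was in 0 of the 37 windows and in 0.0335% of all windows. A match is a description of letters and not of a bound site. The submitters' processing notes name another build, GRCm39, for the deposited tables. There *Cd36* (ENSMUSG00000002944) spans chr5:17986688-18093799, *Hadha* (ENSMUSG00000025745) chr5:30323302-30360160 and *Hadhb* (ENSMUSG00000059447) chr5:30360246-30389591.

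Levels are given in CPM, counts scaled to a common library total, recovered from the double-log values that the authors deposited for each group. Those values have 2 decimals, so each fold of *Gpr75*-/- over WT carries bounds from rounding, which are the first range given after a fold. The wider interval adds 95% counting error, taking normalized counts as reads of 3 mice per group. It covers rounding and counting only, and the spread between mice is not in it. A gene is called higher or lower where the rounding bounds lie on 1 side of no change, and beyond counting error where the wider interval does. The 38 genes had mean normalized counts from 53.0 to 8276 on chow and from 59.6 to 9165 on the HFD, and all passed the minimum of 10 set on the mean over both genotypes. Summed over all genes, the mean normalized count per mouse was 18280462 on chow and 19420111 on the HFD.

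*Gpr75* itself was at 16.7 CPM in WT and 24.6 CPM in *Gpr75*-/- mice on chow, and at 19.9 and 18.4 CPM on the HFD. The allele can leave the mRNA in place, so this level does not check the genotype labels. Levels were also taken for 6 neuropeptide genes of the hypothalamus (*Agrp*, *Pomc*, *Hcrt*, *Pmch*, *Avp* and *Oxt*). They were chosen after the data were seen, so they do not test the tissue label. All were found on both diets, with summed levels of 578 CPM in WT and 606 CPM in *Gpr75*-/- mice on chow and 582 and 714 CPM on the HFD. On the HFD 5 of the 6 were higher in *Gpr75*-/- mice by the rounding bounds, where 32.9% of all genes were. Of these 4 were 25% or more higher, which 2.82% of all genes were, with folds of 1.48 to 1.52 by the rounding bounds for *Agrp*, 1.38 for *Pomc*, 1.30 for *Pmch* and 1.26 for *Hcrt*, and *Pomc* had a fold of 0.826 on chow. The part of these differences in the results below was not tested. Markers of other cells and tissues differed between genotypes. On chow the summed level of 5 red blood cell genes was 277 CPM in WT and 443 CPM in *Gpr75*-/- mice, and that of 4 choroid plexus genes was 34.3 and 58.6 CPM, without *Aqp1*, which was listed at 0 in a group. Group levels can lie far from a mean over mice for such genes. *Ttr*, of choroid plexus, entered the sum on chow with levels of 5.59 and 12.9 CPM, while its mean normalized count of 2910 over both genotypes corresponds to 158 CPM. On the HFD the red blood cell sums were 314 and 280.2 CPM, and the sums of the 3 choroid plexus genes listed were 29.7 and 29.8 CPM. Within the latter *Ttr* was at 3.60 and 1.35 CPM, whereas *Kl* and *Clic6* had folds of 1.12 and 1.08. The summed level of 8 oligodendrocyte genes was 11498 CPM in WT and 9805 CPM in *Gpr75*-/- mice on chow and 12082 and 10346 CPM on the HFD. Bulk tissue cannot tell fewer cells of a type from less RNA per cell. The part of these cells in the differences below was not tested.

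The 8 highest and the 7 lowest of the 38 genes in WT mice held the same rank on both diets. Per kilobase of exon, *Acsl3* was highest, with a level of 101 CPM per kb on chow and 106 on the HFD. It encodes an acyl-CoA synthetase that also serves lipid droplet formation. *Oxct1*, the gene of the enzyme that commits ketone bodies to oxidation, came second with 63.5 and 66.3 CPM per kb. *Fabp7*, the fatty acid–binding protein of radial glia, astrocytes and tanycytes, followed at 46.7 and 38.5 CPM per kb. At the other end the receptor genes *Ppara* and *Ppard* had 0.745 and 0.744 CPM per kb on chow, which lie within rounding of each other, and 0.812 and 0.731 on the HFD. *Cd36* was next with 1.19 on chow and 1.46 on the HFD. Among the carnitine palmitoyltransferases *Cpt1c*, a neuronal form of the endoplasmic reticulum, was at 15.2 CPM per kb on chow, above *Cpt2* at 5.40 and *Cpt1a* at 4.64. The tables of the diets were normalized separately, so no level was compared between diets.

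**Figure D1:**
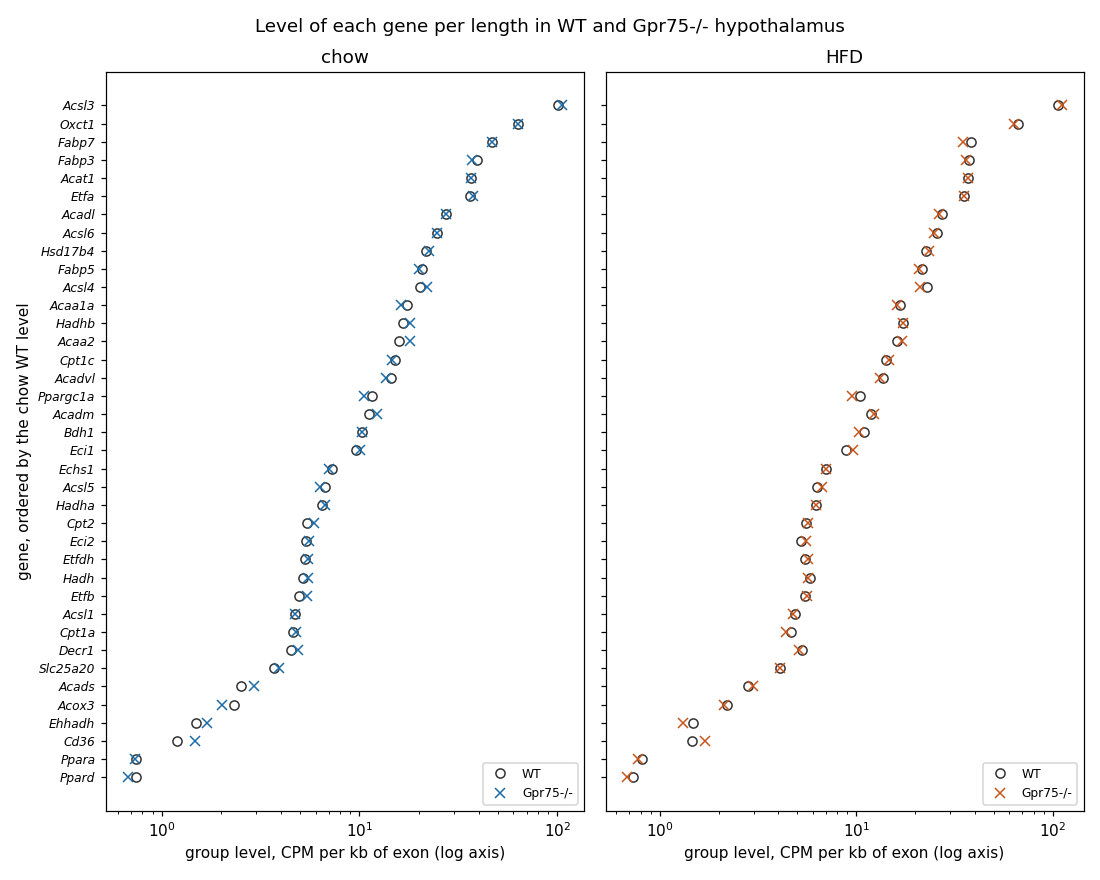
Level of each of the 38 genes in CPM per kilobase of exon on a log axis, with chow on the left and the HFD on the right. Open circles are WT and crosses *Gpr75*-/- groups of 3 mice, without error bars because each group has 1 deposited level. In WT mice on chow the levels run from 0.744 (*Ppard*) to 101 (*Acsl3*), and circle and cross of a gene lie close together.

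On chow 0 of the 38 genes were 25% or more higher in *Gpr75*-/- mice and 0 were 20% or more lower, where 3.85% and 3.49% of all genes were (7.33% together). The counts were also 0 on the HFD, where the shares of all genes were 2.82% and 2.43% (5.25% together). Most of those genes had low counts. Of the 1230 on chow, 280 had a mean normalized count of at least 100, as did 34 of the 38 genes. The 280 are 2.26% of all genes with such a mean. On the HFD that share was 1.43%. The median size of the log2 fold, whatever its direction, was 0.07 in the set and 0.08 over all genes on chow, and 0.05 and 0.07 on the HFD. Folds of *Gpr75*-/- over WT ran from 0.873 (*Acox3*) to 1.24 (*Cd36*) on chow and from 0.889 (*Ehhadh*) to 1.16 (*Cd36*) on the HFD. On the log2 scale the median fold of the set was 0.04 on chow and -0.02 on the HFD, against 0.00 for all genes on each diet. For 30 genes on chow, and for 34 when mice ate the HFD, the wider interval lay inside these limits. It reached past them for *Acaa2*, *Acads*, *Acox3*, *Cd36*, *Ehhadh*, *Etfb*, *Ppara* and *Ppard* on chow and for *Cd36*, *Ehhadh*, *Ppara* and *Ppard* on the HFD.

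By the rounding bounds 13 genes were higher and 7 lower in *Gpr75*-/- mice on chow, where 31.8% of all genes were higher and 30.0% lower (61.8% together). On the HFD 6 were higher and 8 lower, where the shares of all genes were 32.9% and 24.8% (57.7% together). Beyond counting error, *Acadm*, *Hadhb*, *Acaa2*, *Cd36* and *Acsl4* were higher and *Acox3* and *Ppargc1a* lower on chow. These are 13.2% and 5.26% of the set, where 9.36% and 9.37% of all genes were (18.7% together). On the HFD *Ppargc1a*, *Fabp7* and *Acsl4* were lower, 7.89% of the set, and 0 genes were higher, where 7.88% of all genes were higher and 6.91% lower (14.8% together).

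**Figure D2:**
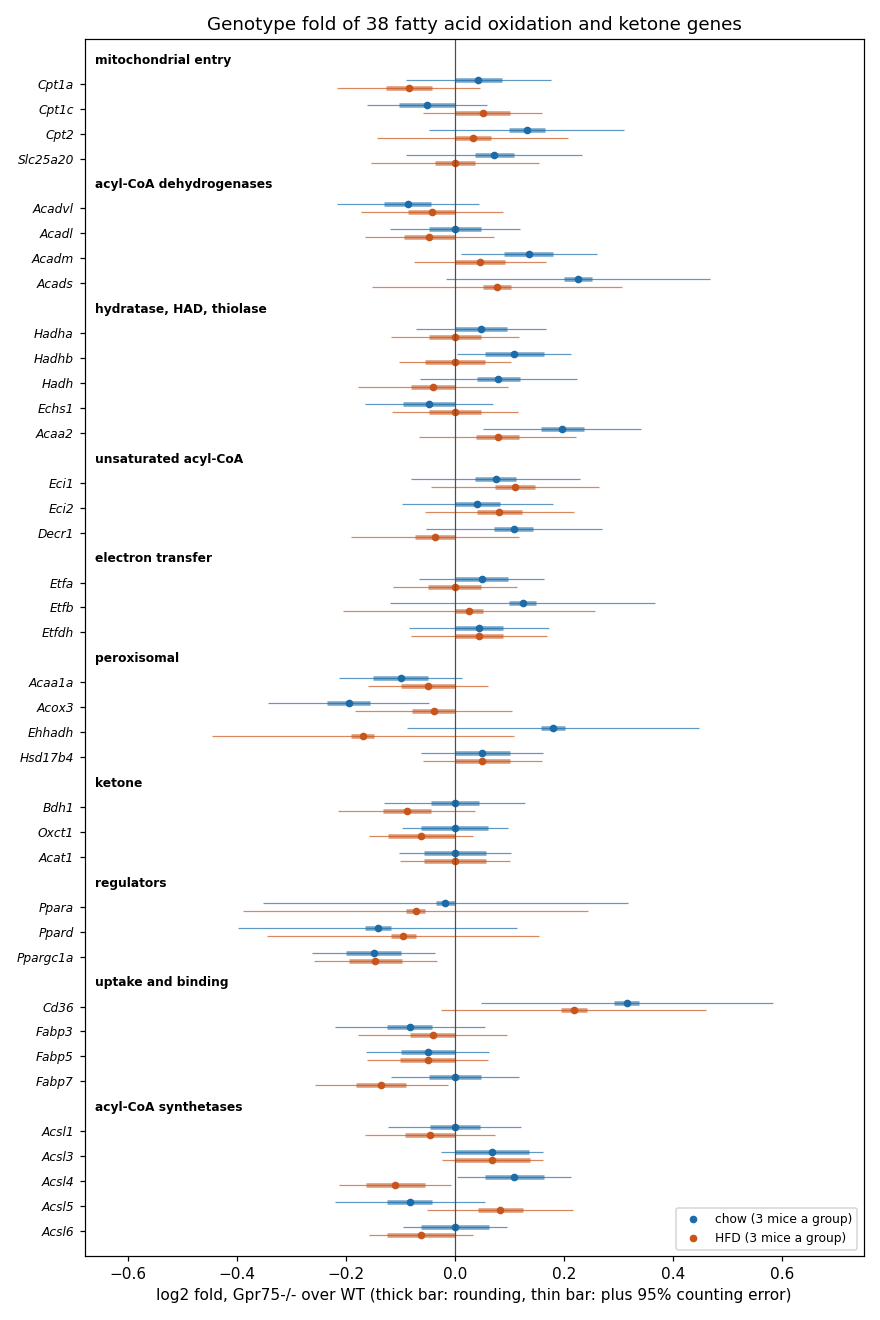
Log2 fold of *Gpr75*-/- over WT for each gene, grouped by role, on chow (blue) and the HFD (orange). Points are folds of the group levels, thick bars the rounding bounds and thin bars the wider interval, and the spread between mice is in neither. *Cd36* lies farthest to the right on both diets, at 0.32 and 0.22, and *Ppargc1a* lies left of 0 on both, at -0.15 on chow.

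*Cd36*, which encodes a receptor and transporter of long-chain fatty acids, was at 4.27 CPM in WT and 5.32 CPM in *Gpr75*-/- mice on chow, a fold of 1.24 (1.23 to 1.26, wider interval 1.03 to 1.499). On the HFD it was at 5.23 and 6.08 CPM, a fold of 1.16 (1.14 to 1.18, wider interval 0.982 to 1.38), which is within counting error. It is weakly expressed, with mean normalized counts of 88.3 and 111. In brain CD36 is known from microvessels and microglia. All 5 endothelial genes followed here were lower in *Gpr75*-/- mice by the rounding bounds on chow, where 30.0% of all genes were, but 0 were beyond counting error, with sums of 139.8 CPM in WT and 131 CPM in *Gpr75*-/- mice. On the HFD 3 were lower and 1 higher, 60% and 20% against 24.8% and 32.9% of all genes, with sums of 129.7 and 125 CPM. *Tek* alone was beyond counting error, higher with a fold of 1.13 (wider interval 1.02 to 1.26). Of 5 microglial genes 1 was higher and 1 lower on chow, 20% each against 31.8% and 30.0% of all genes. The sums were 170.1 and 164 CPM. On the HFD 1 was higher and 2 lower, 20% and 40% against 32.9% and 24.8%, with sums of 168 and 162 CPM. Beyond counting error *Cx3cr1* was lower on chow (wider interval 0.786 to 0.942) and *C1qa* higher on the HFD (1.01 to 1.26).

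The fatty acid–binding proteins carry fatty acids through the cytosol. *Fabp3*, the heart form, was at 32.5 CPM in WT and 30.7 CPM in *Gpr75*-/- mice on chow (fold 0.944, 0.917 to 0.972), and at 30.7 and 29.8 CPM on the HFD, within rounding. *Fabp5*, the epidermal form, had a fold of 0.966 on both diets, also within rounding. *Fabp7* was equal at 58.4 CPM in both genotypes on chow. On the HFD it was at 48.1 CPM in WT and 43.8 CPM in *Gpr75*-/- mice, a fold of 0.910 (0.882 to 0.939, wider interval 0.836 to 0.991). Of cells that express *Fabp7*, tanycytes were followed by *Col23a1* and *Rax* only, and *Rax* was not among the genes listed. *Col23a1* was at 13.8 CPM in WT and 14.8 CPM in *Gpr75*-/- mice on the HFD (fold 1.07, 1.05 to 1.10). Other tanycyte genes were not followed here, so 1 gene does not describe these cells. The ependymal genes *Foxj1*, *Ccdc153* and *Tmem212* were lower on the HFD, where 24.8% of all genes were, with folds of 0.930, 0.843 and 0.882. Of these *Ccdc153* alone was beyond counting error (wider interval 0.726 to 0.978). On chow 2 of the 4 tanycyte and ependymal genes were higher and 2 lower, where 31.8% and 30.0% of all genes were. There *Foxj1* alone was beyond counting error, higher (wider interval 1.02 to 1.30). Among 7 astrocyte markers 2 were higher and 0 lower on the HFD, 28.6% and 0% against 32.9% and 24.8% of all genes. The sums there were 3213 and 3317 CPM. On chow 1 was higher and 1 lower, 14.3% each against 31.8% and 30.0%. All of these were beyond counting error, where 7.88% of all genes were higher on the HFD. The shares of all genes on chow were 9.36% higher and 9.37% lower.

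The acyl-CoA synthetases, which trap fatty acids in the cell by joining them to coenzyme A, did not share a direction. *Acsl4*, the form that prefers arachidonic acid, was at 109.99 CPM in WT and 119 CPM in *Gpr75*-/- mice on chow (fold 1.08, 1.04 to 1.12, wider interval 1.003 to 1.16). On the HFD the order was turned, with 123 CPM in WT and 114 CPM in *Gpr75*-/- mice (fold 0.927, 0.893 to 0.963, wider interval 0.863 to 0.995). *Acsl5*, a form found on mitochondria and the endoplasmic reticulum, had folds of 0.944 on chow (0.917 to 0.972) and 1.06 on the HFD (1.03 to 1.09), both within counting error. *Acsl3*, the most expressed gene of the set, was at 439.9 and 461 CPM on chow and 461 and 484 CPM on the HFD, within rounding on both. *Acsl1* and the brain-enriched *Acsl6* were equal on chow and had folds of 0.969 and 0.958 on the HFD, within rounding.

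Of the 19 genes of mitochondrial steps, 10 were higher on chow, 52.6% against 31.8% of all genes, and 1 was lower, 5.26% against 30.0%. Beyond counting error 3 were higher and 0 lower there, where the shares of all genes were 9.36% and 9.37%. On the HFD 4 were higher, 21.1% against 32.9%, and 1 was lower, 5.26% against 24.8%, and 0 of the 19 were beyond counting error, where 7.88% of all genes were higher and 6.91% lower. The median log2 fold was 0.07 on chow and 0.00 on the HFD. Their summed level was 752 CPM in WT and 776 CPM in *Gpr75*-/- mice on chow, and 754 and 758 CPM on the HFD. *Eci2*, which is 1 of the 4 higher on the HFD, was counted here for its role on unsaturated chains. Whether its enzyme works in peroxisomes was not considered.

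At the entry step *Cpt1a*, the enzyme of the outer membrane that malonyl-CoA inhibits, was at 35.4 CPM in WT and 36.5 CPM in *Gpr75*-/- mice on chow, within rounding. On the HFD it was at 35.4 and 33.4 CPM (fold 0.943, 0.916 to 0.971). *Cpt1c* had folds of 0.965 and 1.04, within rounding on both diets. *Cpt2*, which completes the transfer at the inner membrane, had a fold of 1.10 on chow (1.07 to 1.12) and 1.02 on the HFD, where it was within rounding. *Slc25a20*, the carnitine-acylcarnitine carrier, had 1.05 on chow (1.03 to 1.08) and was equal on the HFD. None of the 4 was beyond counting error on either diet.

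The acyl-CoA dehydrogenases start each round and differ in the chain length they take. On chow the folds were 0.942 (0.914 to 0.970, wider interval 0.860 to 1.03) for *Acadvl*, which takes very long chains, 1 for *Acadl* (long chains), 1.10 (1.06 to 1.13) for *Acadm* (medium chains) and 1.17 (1.15 to 1.19) for *Acads* (short chains). On the HFD the same genes had 0.971, 0.968, 1.03 and 1.06, of which *Acads* alone was outside rounding. *Acadm* was at 43.8 CPM in WT and 48.1 CPM in *Gpr75*-/- mice on chow, with a wider interval of 1.01 to 1.20, and of the 4 genes it alone was beyond counting error. *Acads* was at 5.68 and 6.64 CPM, and its wider interval of 0.989 to 1.38 included no change.

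Among the enzymes that finish a round, *Acaa2*, a mitochondrial thiolase, was at 23.9 CPM in WT and 27.4 CPM in *Gpr75*-/- mice on chow (fold 1.15, 1.12 to 1.18, wider interval 1.04 to 1.27). Its levels on the HFD were 24.6 and 25.9 CPM (fold 1.06, 1.03 to 1.08). *Hadhb* was at 109.99 and 119 CPM on chow (fold 1.08, 1.04 to 1.12, wider interval 1.003 to 1.16) and equal at 114 CPM on the HFD. Its head-to-head partner *Hadha* was at 56.5 and 58.4 CPM on chow, within rounding, and equal at 54.7 CPM on the HFD. The rounding bounds of the pair overlapped on chow, so unequal change of the subunits was not resolved. *Hadh*, the hydroxyacyl dehydrogenase of shorter chains, had folds of 1.06 (1.03 to 1.09) and 0.972, and *Echs1*, the short-chain hydratase, had 0.967 on chow and was equal on the HFD.

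Unsaturated chains need further enzymes. *Eci1* and *Eci2*, the enoyl-CoA isomerases, had folds of 1.05 and 1.03 on chow, where *Eci2* was within rounding, and of 1.08 (1.05 to 1.11) and 1.06 (1.03 to 1.09) on the HFD. *Decr1*, the dienoyl-CoA reductase, had 1.08 on chow (1.05 to 1.10) and 0.975 on the HFD, within rounding. *Etfa*, *Etfb* and *Etfdh* pass electrons from the dehydrogenases to ubiquinone. Their folds on chow were 1.03, 1.09 and 1.03, with *Etfb* alone outside rounding (1.07 to 1.11), and on the HFD all were within rounding. None of these 6 genes was beyond counting error.

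The peroxisomal genes did not share a direction. *Acox3*, an oxidase of branched chains, was at 26.6 CPM in WT and 23.3 CPM in *Gpr75*-/- mice on chow, the lowest fold of the set there (0.873, 0.850 to 0.897, wider interval 0.789 to 0.967). On the HFD it was at 25.2 and 24.6 CPM, within rounding. *Acaa1a*, the peroxisomal thiolase, was at 76.6 and 71.5 CPM on chow (fold 0.933, 0.901 to 0.966) and within rounding on the HFD. It has a close copy, *Acaa1b*, and how reads were shared out to the copies is not known here. *Ehhadh*, the bifunctional enzyme, was at 4.47 and 5.06 CPM on chow (fold 1.13, 1.12 to 1.15) and at 4.40 and 3.92 CPM on the HFD (fold 0.889, 0.876 to 0.902). Its wider intervals, 0.941 to 1.36 and 0.734 to 1.08, included no change. *Hsd17b4*, the D-bifunctional protein, was within rounding on both diets, with a fold of 1.04 on each.

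The ketone genes were equal between genotypes on chow at the 2 decimals deposited. *Oxct1* was at 235 CPM, *Acat1*, the mitochondrial acetoacetyl-CoA thiolase, at 138 CPM and *Bdh1*, the hydroxybutyrate dehydrogenase, at 40.0 CPM in both groups. The wider intervals of the folds were 0.935 to 1.07 for *Oxct1*, 0.932 to 1.07 for *Acat1* and 0.914 to 1.09 for *Bdh1*. On the HFD *Bdh1* was at 42.5 CPM in WT and 40.0 CPM in *Gpr75*-/- mice (fold 0.941, 0.912 to 0.970, wider interval 0.862 to 1.03), *Oxct1* at 245 and 235 CPM, within rounding, and *Acat1* equal at 138 CPM. Over the 7 peroxisomal and ketone genes 1 was higher and 2 were lower on chow, 14.3% and 28.6% against 31.8% and 30.0% of all genes. On the HFD 0 were higher, where 32.9% of all genes were, and 2 were lower, 28.6% against 24.8%, and the median log2 folds were 0.00 on chow and -0.05 on the HFD. The difference from the mitochondrial genes was not tested, and *Eci2*, higher on the HFD, was counted with those genes.

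Of the 3 regulators 0 were higher and 2 lower on chow, where 30.0% of all genes were lower, and 3 were lower on the HFD, where 24.8% were. Beyond counting error *Ppargc1a* alone was lower, on both diets. Genes listed as regulated by PPARs were counted only with the other genes of the pathway below. *Ppargc1a* encodes PGC-1α, a coactivator of genes for mitochondria and fatty acid oxidation. It was at 76.6 CPM in WT and 69.1 CPM in *Gpr75*-/- mice on chow, a fold of 0.902 (0.871 to 0.933, wider interval 0.834 to 0.975). Its levels on the HFD were 69.1 and 62.4 CPM, a fold of 0.904 (0.874 to 0.935, wider interval 0.836 to 0.977). Of the 38 genes it alone was beyond counting error on both diets in the same direction, and lower, which is 2.63% of the set, where 1.99% of all genes were lower and 1.17% higher on both. *Ppard*, the receptor PPARδ, had 0.906 (0.892 to 0.921) on chow and 0.937 (0.921 to 0.952) on the HFD. *Ppara*, the receptor PPARα, had 0.988 on chow, within rounding, and 0.951 (0.939 to 0.963) on the HFD. With wider intervals of 0.759 to 1.08 for *Ppard* and 0.784 to 1.246 for *Ppara* on chow, a difference of the size of that of *Ppargc1a* was not detectable for the receptor genes at this depth. PGC-1α is found in neurons, and the summed level of 5 neuronal markers was 4180 CPM in WT and 4046 CPM in *Gpr75*-/- mice on chow and 3912 and 3854 CPM on the HFD.

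The diets have separate WT mice, so their folds share no control samples. *Cd36*, *Acads*, *Acaa2* and *Eci1* were higher on both diets, which is 10.5% of the set and was true of 13.3% of all genes. *Ppargc1a* and *Ppard* were lower on both, 5.26% of the set and 10.6% of all genes. *Acsl4* and *Ehhadh* were higher on chow and lower on the HFD, where 7.62% of all genes were, and *Acsl5* was the reverse, as were 10.2% of all genes. Beyond counting error *Acsl4* alone was higher on chow and lower on the HFD, 2.63% of the set and 0.506% of all genes, and 0 of the 38 genes were the reverse, where 0.421% of all genes were. For 13 genes the difference was within rounding on both diets, 34.2% of the set and 23.7% of all genes. Across the 38 genes Pearson's r between the log2 folds on chow and on the HFD was 0.47 and Spearman's rho 0.41. Across 16393 genes r was 0.14 and rho 0.13. These describe genes, which are not independent replicates and which share the libraries of a diet. The median count on chow was 736 in the set and 384 over all genes, so the values of r are not at like depth. They were not recomputed without *Cd36*, which had the highest fold on both diets. The median difference of the log2 fold over the set, HFD minus chow, was -0.05 and was not tested.

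**Figure D3:**
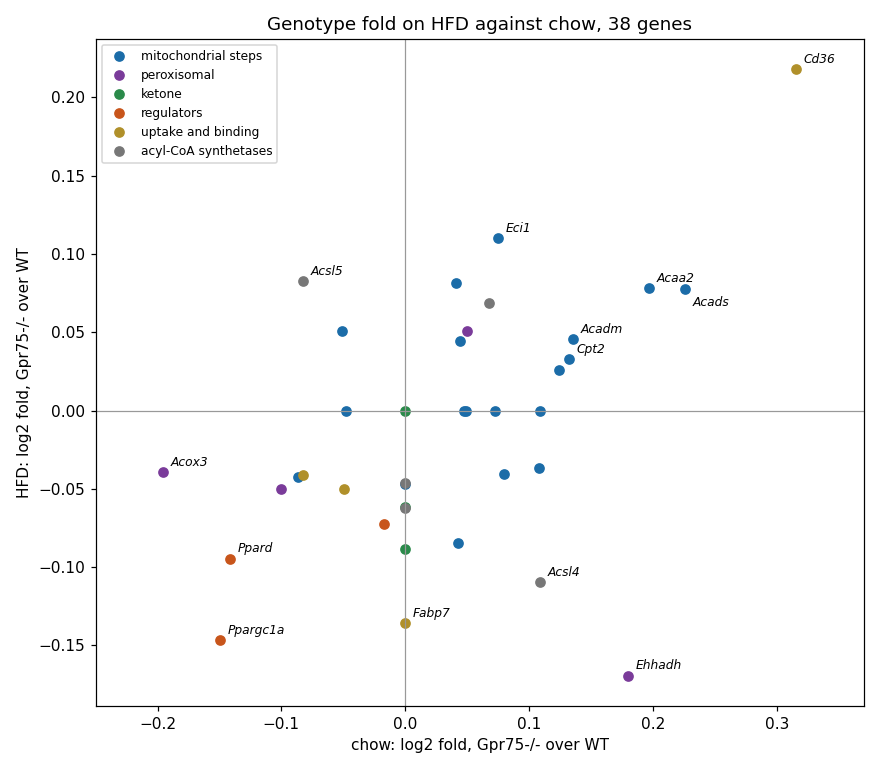
Log2 fold of *Gpr75*-/- over WT on the HFD (vertical) against chow (horizontal), 1 point per gene, colored by role, with lines at no difference. *Cd36* lies at the upper right, at 0.32 on chow and 0.22 on the HFD, *Ppargc1a* at the lower left, at -0.15 on chow, and *Acsl4* and *Ehhadh* at the lower right.

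Other genes of the pathway were counted from a list of 55, of which 51 were in the tables. On chow 20 were higher and 10 lower, 39.2% and 19.6% against 31.8% and 30.0% of all genes. On the HFD 11 were higher and 9 lower, 21.6% and 17.6% against 32.9% and 24.8%, with median log2 folds of 0.05 and 0.00. Beyond counting error 12 were higher and 3 lower on chow, 23.5% and 5.88% against 9.36% and 9.37% of all genes, and 2 were higher and 2 lower on the HFD, where 7.88% and 6.91% were. On chow 2 were 25% or more higher (*Pdk4* and *Bdh2*) and 2 were 20% or more lower (*Acaa1b* and *Hacl1*), near the shares of all genes of 3.85% and 3.49%, and on the HFD 0 were. *Pdk4*, the kinase that turns off pyruvate dehydrogenase when fat is burned, was at 13.2 CPM in WT and 16.7 CPM in *Gpr75*-/- mice on chow (fold 1.26, 1.24 to 1.30, wider interval 1.12 to 1.43) and at 16.7 and 19.4 CPM on the HFD (fold 1.16, 1.13 to 1.19, wider interval 1.04 to 1.30). *Bdh2*, a cytosolic dehydrogenase, was at 4.91 and 6.19 CPM on chow (fold 1.26, wider interval 1.06 to 1.503) and at 5.32 and 6.30 CPM on the HFD (fold 1.18, wider interval 1.003 to 1.40), higher beyond counting error on both. *Acaa1b* and *Hacl1*, the latter for the α-oxidation of branched chains, were at 3.11 and 1.67 CPM in WT and 2.21 and 1.27 CPM in *Gpr75*-/- mice on chow, with wider intervals of the fold of 0.561 to 0.897 and 0.556 to 1.04, the latter including no change. On the HFD their folds were 0.953 and 1.03.

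**Figure D4:**
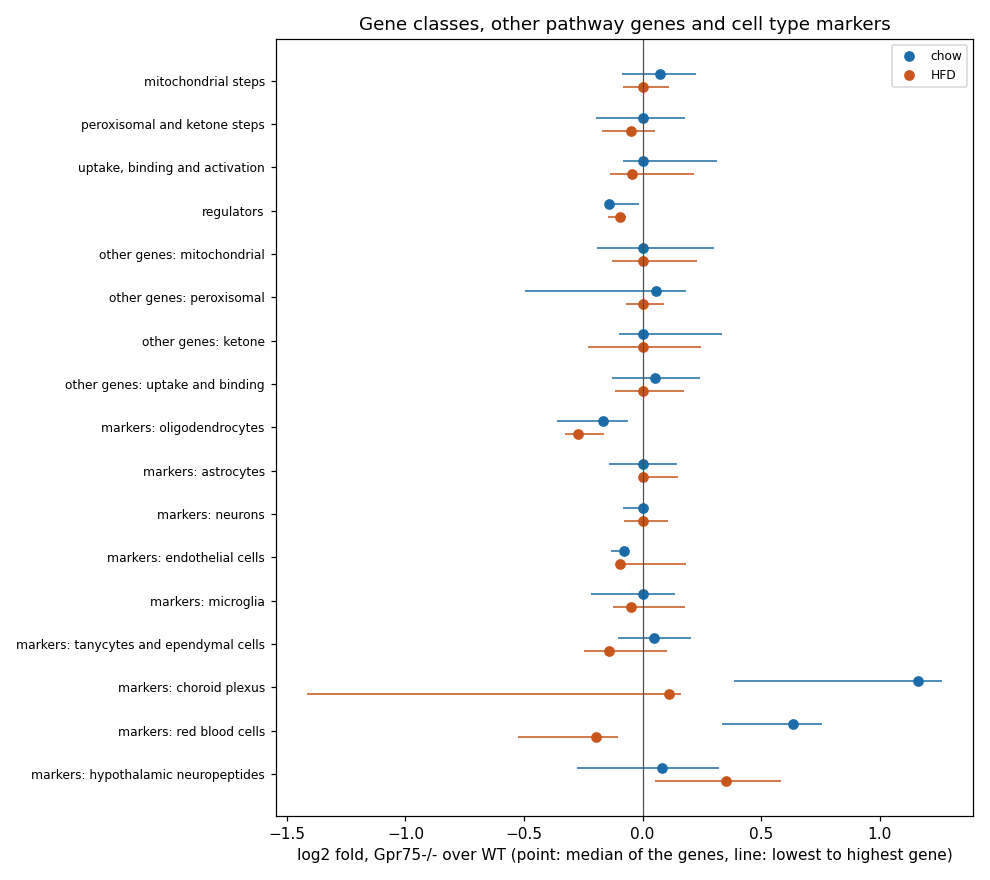
Log2 fold of *Gpr75*-/- over WT for classes of the 38 genes, other genes of the pathway and cell type markers, on chow (blue) and the HFD (orange). Genes listed as regulated by PPARs are not drawn. Points are medians over genes and lines run from the lowest to the highest gene. On chow the median of the mitochondrial class lies at 0.07 and that of the regulators at -0.14, and the medians of choroid plexus and red blood cell markers lie at 1.16 and 0.63.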

How the data were processed

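RNA-Seq of hypothalamus covered 12 mice in 4 groups of 3, assigned from their labels. The submitters' processing notes name STAR, featureCounts, StringTie, DESeq2 and GRCm39, without versions or roles. The authors compared genotypes with DESeq2 within each diet and deposited 1 table per diet. The signal in the deposited tables is the mean over 6 mice of counts divided by size factors. The group levels that the authors deposited are log2(1 + log2(CPM)) with 2 decimals. This scale was inferred from the values. After it was undone, the mean of the groups kept 1 ratio to the mean normalized count within rounding for 95.8% of 12413 genes on chow and 96.3% of 12509 on the HFD with means above 100. Other genes did not keep it. *Ttr* on chow had levels of 5.59 and 12.9 CPM where its mean count of 2910 gives 158 CPM, which an arithmetic mean over mice would not give, and the kind of average (on a log scale or a median) could not be told. Of the 38 genes, 35 on chow and 38 on the HFD kept the ratio within rounding, and the others (*Eci1*, *Ehhadh* and *Ppara*) missed narrowly, with differences over the set from -0.02 to 0.02 on the log2 scale.

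The fold changes, standard errors, statistics and p-values of the authors' own comparisons are in 9 further columns per table and were not used. A count test had been planned and could not be fitted to group levels. Folds are ratios of group levels, over 16769 genes on chow and 16679 on the HFD with a mean of at least 10 and no group listed at 0. Genes 25% or more higher or 20% or more lower were counted. Every gene of the set is named. Of other lists at most 3 genes are named, those farthest from no change, with exceptions. The exceptions are the neuropeptide genes, all named, and further markers of choroid plexus, tanycytes and ependymal cells. These were chosen with their values known. For 1 further gene on the planned lists no value is given, and it is in no count of those lists. Exon lengths came from GENCODE M21 by Ensembl identifier, for 99.8% of genes on each diet. Undoing the scale was tested on simulated group levels without counting noise or spread between mice. That test used the inferred scale itself, so it checks neither the scale nor the counting error. The steps were run in Python 3.11.15 with numpy 2.4.6, pandas 2.3.3, scipy 1.17.1 and matplotlib 3.10.9. Members and lists were chosen with earlier results of these data known. Alternatives were a mean of at least 100, centering on all genes, 1.5-fold, protein-coding genes alone and, added after the data were seen, the set without *Cd36*.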

Additional observations from a re-analysis of the deposited data

How the results depend on the processing

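No paired analysis was possible because the values are levels of groups and not of single mice, and for the same reason DESeq2 size factors, another count test and leaving out a replicate were not run. The number of the 38 genes that were 25% or more higher or 20% or more lower stayed at 0 with a mean of at least 100, with centering on all genes, at 1.5-fold and among protein-coding genes, on both diets. Of all genes, the number that far apart was 1230 on chow and 876 on the HFD. It was 280 and 179 with a mean of at least 100, 603 and 520 among protein-coding genes, and 179 and 83 at 1.5-fold. Centering changed neither number, since the median of all genes was 0.00. The median log2 fold of the set was 0.04 on chow in each setting. On the HFD it was -0.02, with 0.00 at a mean of at least 100 and -0.04 without *Cd36*. Rounding limits a log2 fold to a half-width of 0.02 to 0.07, and counting error to a standard error of 0.01 to 0.16 on chow. The spread between mice was not measured here.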
